A study of Mus musculus with 8 samples.

Results

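Expression of 9 meiosis genes and their germline regulators was followed in mouse embryonic stem cells that lacked the histone demethylases Jmjd1a, Jmjd1b or both. The genes were Stra8, Sohlh2, Hormad1, Sycp3, Sycp1, Smc1b, Stag3, Rec8 and Dmc1, out of 18194 genes with a probe set of their own on the array. They were taken as every probe set whose only gene symbol is one of these names and whose values span at least 0.01 on the log2 scale over the 8 arrays. Of their 10 probe sets, 8 met this minimum, 1 each for 8 genes. The smallest span inside it was 1.09 (Smc1b), and the largest span outside it was 8.9e-08. The only probe set of Rec8 was flat at 7.89 on every array, and so was 1 of the 2 Dmc1 probe sets, at 7.47, so the files hold no measured difference for them. Because the 8 probe sets passed by varying between arrays, a change in some of them is built into their choice.

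Meiosis is the pair of divisions by which germ cells make haploid gametes. STRA8, induced by retinoic acid, starts the meiotic programme in the mouse, and SOHLH2 is a helix-loop-helix transcription factor of early germ cells. Chromosomes then form protein axes built from HORMAD1, SYCP3 and cohesin complexes with the meiotic subunits SMC1B, STAG3 and REC8, SYCP1 zips the paired axes together, and the recombinase DMC1 exchanges strands between homologues. In mouse embryonic stem cells, DNA methylation, H3K9 methylation and a variant Polycomb complex, PRC1.6, are known to repress many germline genes, and JMJD1A and JMJD1B remove methyl groups from H3K9.

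Each of 4 genotypes was measured on 2 arrays, labelled as biological replicates. Double-KO cells (Jmjd1a delta/delta; Jmjd1b delta/delta) were a Jmjd1a-deficient line in which a conditional Jmjd1b allele had been deleted by the tamoxifen-inducible Cre recombinase MerCreMer. Jmjd1a-KO cells (Jmjd1a delta/delta; Jmjd1b +/+) were a Jmjd1a-deficient line. Jmjd1b-KO cells (Jmjd1a +/+; Jmjd1b delta/delta) are labelled as stem cells of Jmjd1b-deficient mice, while the design text describes cell lines in which the gene was targeted and then deleted by a Cre adenovirus. WT cells (Jmjd1a +/+; Jmjd1b +/+) are labelled as stem cells of WT mice. All cells grew with the cytokine LIF, and the protocol of every sample names OHT (4-hydroxytamoxifen) at 800 nM, with no sample labelled as an OHT control. The sources used here do not say which clone gave which replicate, so p-values measure the spread between these samples and differences between lines cannot be told apart from genotype.

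The deposited values are log2 array values with medians between 6.80 and 6.81 and lower quartiles between 6.341 and 6.346. Kdm3a (Jmjd1a) averaged 4.68 in double-KO and 4.98 in Jmjd1a-KO cells, against 12.81 in Jmjd1b-KO and 12.78 in WT cells. The measured probe set of Kdm3b (Jmjd1b) averaged 7.36 in double-KO and 7.08 in Jmjd1b-KO cells, against 9.88 in Jmjd1a-KO and 9.93 in WT cells, so both genes follow the labels. Replicates differed more in double-KO and Jmjd1a-KO (SD of the replicate difference 0.30 and 0.35 over 11502 measured probe sets) than in Jmjd1b-KO and WT (0.12 and 0.16). Of 10 stem cell markers, all 10 were measured, and their mean log2 value per array was 11.30 to 12.05 in double-KO, 12.00 to 12.09 in Jmjd1a-KO, 11.55 to 11.61 in Jmjd1b-KO and 11.53 to 11.56 in WT. Against WT (limma, adjusted p under 0.05), 4 of them rose in double-KO, 2 in Jmjd1a-KO and 0 in Jmjd1b-KO, and 0 fell. Of all measured probe sets, 26.9%, 9.98% and 12.3% rose and 19.6%, 7.84% and 11.5% fell in these comparisons. The 2 double-KO arrays differed in Esrrb (7.68 and 9.58) and Klf4 (8.74 and 10.25), with the lower values in replicate 1. Bulk values cannot tell more expressing cells from more RNA per cell.

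The promoters of 5 of the genes are shown because 4 of them, Hormad1, Sycp3, Sycp1 and Stag3, hold the E-box CACGTG. Stra8 holds AGGTCA, a hexamer bound by retinoic acid receptors and other nuclear receptors. MAX can bind CACGTG with MGA, both of them PRC1.6 subunits, or with the factor MYC. Each promoter is the 250 bases before the gene's start in RefSeq (GRCm38.p6), on the gene's own strand. RefSeq gives Hormad1 2 starts, and its window and positions refer to the upstream one. The windows lie at chr6:34920698-34920947 (plus strand) for Stra8, chr3:95559427-95559676 (plus strand) for Hormad1, chr10:88459337-88459586 (plus strand) for Sycp3, chr3:102936101-102936350 (minus strand) for Sycp1 and chr5:138280259-138280508 (plus strand) for Stag3. Capitals mark matches, on either strand, to both of these hexamers and to the core of the site of the PRC1.6 subunit E2F6, which reads TCCCGC.
Stra8: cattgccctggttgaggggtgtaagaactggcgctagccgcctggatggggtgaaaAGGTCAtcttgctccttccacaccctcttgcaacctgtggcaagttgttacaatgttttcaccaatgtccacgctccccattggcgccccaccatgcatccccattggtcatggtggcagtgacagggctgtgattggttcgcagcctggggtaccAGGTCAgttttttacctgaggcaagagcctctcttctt
Hormad1: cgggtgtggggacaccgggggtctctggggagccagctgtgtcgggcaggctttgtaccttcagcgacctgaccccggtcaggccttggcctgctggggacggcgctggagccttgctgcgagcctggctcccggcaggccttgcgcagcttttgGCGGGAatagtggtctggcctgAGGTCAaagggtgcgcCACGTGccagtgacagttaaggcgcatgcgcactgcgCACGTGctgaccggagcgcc
Sycp3: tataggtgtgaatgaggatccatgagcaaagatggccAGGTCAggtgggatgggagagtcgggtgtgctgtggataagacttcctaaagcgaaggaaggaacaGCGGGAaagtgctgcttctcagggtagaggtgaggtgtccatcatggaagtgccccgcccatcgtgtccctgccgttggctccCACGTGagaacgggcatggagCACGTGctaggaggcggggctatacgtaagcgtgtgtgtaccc
Sycp1: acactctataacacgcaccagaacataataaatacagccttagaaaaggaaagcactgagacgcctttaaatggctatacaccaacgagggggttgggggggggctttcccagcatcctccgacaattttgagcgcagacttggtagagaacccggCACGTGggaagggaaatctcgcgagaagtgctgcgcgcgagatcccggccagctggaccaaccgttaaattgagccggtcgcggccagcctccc
Stag3: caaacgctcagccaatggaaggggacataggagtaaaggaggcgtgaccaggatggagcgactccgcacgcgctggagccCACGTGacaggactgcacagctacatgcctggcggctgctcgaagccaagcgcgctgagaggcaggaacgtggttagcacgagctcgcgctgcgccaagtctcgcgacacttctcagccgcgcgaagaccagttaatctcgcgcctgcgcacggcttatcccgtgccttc

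CACGTG stood in 4 of the 9 promoters, against 6.02% of 32851 promoter windows of the same length. Hormad1 and Sycp3 each had 2 copies, starting 57 and 20 bases before the start in Hormad1 and 64 and 43 bases before it in Sycp3. TCCCGC stood in 5 of the 9 promoters (Hormad1, Sycp3, Smc1b, Rec8 and Dmc1), against 16.9% of all windows. AGGTCA stood in 3 of the 9 (Stra8, Hormad1 and Sycp3), against 14% of all windows, and the 2 Stra8 copies began 194 and 38 bases before the start. No match overlapped another in the sequences shown. The Sohlh2 window held none of the 3 motifs. CpG dinucleotides numbered 26 in Stag3, 25 in Smc1b, 19 in Hormad1, 17 in Sycp1, 14 in Sohlh2, 12 in Sycp3, 12 in Dmc1, 10 in Rec8 and 5 in Stra8, against a median of 6 over all windows, so Stra8 was the only member below that median. The motif shares are over all windows, which were not matched to the members for CpG number. A match is only a run of letters, and binding was not measured here.

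The regulators Stra8 and Sohlh2 were low in both groups without Jmjd1a. Stra8 had log2 values of 6.03 and 7.20 in double-KO, 8.68 and 8.71 in Jmjd1a-KO, 10.87 and 11.07 in Jmjd1b-KO, and 11.34 and 11.45 in WT. The 4 groups did not overlap and stood in this order from low to high. Stra8 fell by 4.78 ± 0.35 (SE) on the log2 scale in double-KO against WT (27.5-fold lower, adjusted p = 0.000454). It fell by 2.7 ± 0.35 in Jmjd1a-KO against WT (6.5-fold lower, adjusted p = 0.00985) and fell by 2.08 ± 0.35 in double-KO against Jmjd1a-KO (4.23-fold lower, adjusted p = 0.0105). In Jmjd1b-KO the difference from WT was -0.43, with a 95% confidence interval of -1.29 to 0.43 (adjusted p = 0.405). With only Jmjd1b-KO and WT in the fit, where replicates were 0.20 and 0.12 apart, this difference passed the threshold. With only double-KO and Jmjd1a-KO in the fit, the fall between them did not pass it. Fits that took in flat probe sets lost that call and the one in Jmjd1a-KO against WT. The 2 double-KO arrays were 1.17 apart and 1 of them lay below the lower quartile of all values, so the size of the double-KO change is uncertain. The Jmjd1a-KO call was lost without WT replicate 1 or 2 (adjusted p = 0.0615 and 0.0697).

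Sohlh2 had log2 values of 7.41 and 7.43 in double-KO, 7.25 and 7.16 in Jmjd1a-KO, 9.01 and 8.98 in Jmjd1b-KO, and 9.01 and 9.04 in WT. The 4 arrays without Jmjd1a lay between 7.16 and 7.43 and the 4 with it between 8.98 and 9.04, so that the replicates of each group were at most 0.09 apart. Sohlh2 fell by 1.6 ± 0.06 in double-KO against WT (adjusted p = 8.37e-05) and fell by 1.82 ± 0.06 in Jmjd1a-KO against WT (3.53-fold lower, adjusted p = 0.000199). Jmjd1b-KO differed from WT by -0.03 (95% confidence interval -0.16 to 0.11, adjusted p = 0.75). Double-KO stood 0.22 ± 0.06 above Jmjd1a-KO (adjusted p = 0.0346), a call that was lost without 7 of the 8 arrays in turn (adjusted p between 0.0689 and 0.104) and kept without Jmjd1a-KO replicate 1.

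**Figure D1:**
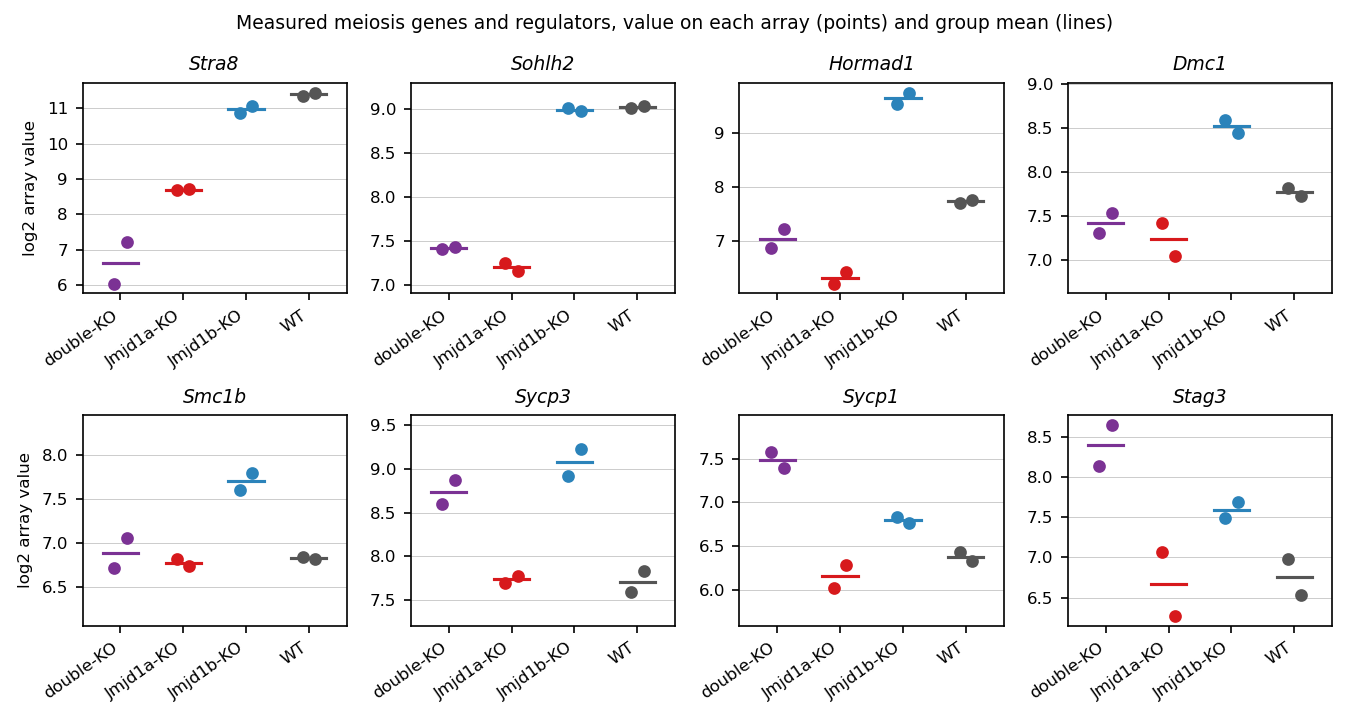
Log2 array values (y axis) of the 8 measured genes in double-KO, Jmjd1a-KO, Jmjd1b-KO and WT cells, with 1 point per array and a line at each group mean; each panel has its own y range. Stra8 and Sohlh2 are low in both groups without Jmjd1a, Hormad1, Dmc1 and Smc1b are highest in Jmjd1b-KO, and Sycp1 and Stag3 are highest in double-KO.

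Among axis and synaptonemal complex genes, Hormad1, whose protein marks unpaired axes, moved in opposite directions in the 2 single knockouts. Hormad1 had log2 values of 6.87 and 7.22 in double-KO, 6.22 and 6.44 in Jmjd1a-KO, 9.53 and 9.74 in Jmjd1b-KO, and 7.7 and 7.77 in WT. No groups overlapped, and the order from low to high was Jmjd1a-KO, double-KO, WT and Jmjd1b-KO. Hormad1 rose by 1.90 ± 0.14 in Jmjd1b-KO against WT (3.73-fold, adjusted p = 0.00328). It fell by 1.40 ± 0.14 in Jmjd1a-KO against WT (2.65-fold lower, adjusted p = 0.00584) and by 0.69 ± 0.14 in double-KO against WT (adjusted p = 0.0115). Against Jmjd1a-KO it rose by 0.72 ± 0.14 in double-KO (adjusted p = 0.017). The Jmjd1a-KO arrays lay around the lower quartile of all values, which limits how well that fall can be sized. The rise in Jmjd1b-KO held without each array in turn. The fall in Jmjd1a-KO was lost without WT replicate 2 (adjusted p = 0.0534), that in double-KO without WT replicate 1 or 2 (adjusted p = 0.0503 and 0.0637), and the rise over Jmjd1a-KO without Jmjd1a-KO replicate 1 (adjusted p = 0.0545).

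Sycp3, the main protein of the chromosome axis, was high in both groups without Jmjd1b. Its probe set had log2 values of 8.60 and 8.87 in double-KO, 7.7 and 7.78 in Jmjd1a-KO, 8.92 and 9.23 in Jmjd1b-KO, and 7.59 and 7.83 in WT. The 4 arrays without Jmjd1b were all above the 4 with it, while Jmjd1a-KO and WT overlapped. Sycp3 rose by 1.03 ± 0.15 in double-KO against WT (2.04-fold, adjusted p = 0.00324), by 1.37 ± 0.15 in Jmjd1b-KO against WT (2.58-fold, adjusted p = 0.00621) and by 1.00 ± 0.15 in double-KO against Jmjd1a-KO (2.00-fold, adjusted p = 0.00738). Jmjd1a-KO differed from WT by 0.03 (95% confidence interval -0.33 to 0.39, adjusted p = 0.906), and double-KO from Jmjd1b-KO by -0.34 (-0.70 to 0.03, adjusted p = 0.106). The Jmjd1b-KO call was lost without WT replicate 1 (adjusted p = 0.0535) or Jmjd1b-KO replicate 2 (adjusted p = 0.0523).

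Sycp1, the transverse filament that joins paired axes, was highest in double-KO. Its probe set had log2 values of 7.57 and 7.39 in double-KO, 6.02 and 6.29 in Jmjd1a-KO, 6.83 and 6.76 in Jmjd1b-KO, and 6.43 and 6.33 in WT. The groups did not overlap, although Jmjd1a-KO and WT, both near the lower quartile of all values, differed by -0.23 (95% confidence interval -0.50 to 0.04, adjusted p = 0.189). Sycp1 rose by 1.10 ± 0.11 in double-KO against WT (2.14-fold, adjusted p = 0.00103), by 1.33 ± 0.11 against Jmjd1a-KO (2.51-fold, adjusted p = 0.00145) and by 0.69 ± 0.11 against Jmjd1b-KO (1.61-fold, adjusted p = 0.00413). In Jmjd1b-KO it rose by 0.41 ± 0.11 against WT (adjusted p = 0.0445), a call lost when either WT array was left out (adjusted p = 0.135 and 0.175) or either Jmjd1b-KO array (adjusted p = 0.194 and 0.153).

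The measured cohesin subunits differed in pattern. Stag3 had log2 values of 8.14 and 8.65 in double-KO, 7.07 and 6.27 in Jmjd1a-KO, 7.49 and 7.69 in Jmjd1b-KO, and 6.98 and 6.53 in WT. Double-KO was above every other array, and Jmjd1a-KO and WT overlapped. Stag3 rose by 1.64 ± 0.31 in double-KO against WT (3.12-fold, adjusted p = 0.00857) and by 1.72 ± 0.31 against Jmjd1a-KO (3.30-fold, adjusted p = 0.0129). Jmjd1b-KO stood 0.83 above WT (95% confidence interval 0.06 to 1.6, adjusted p = 0.103) and double-KO 0.81 above Jmjd1b-KO (0.04 to 1.58, adjusted p = 0.0768). The call against WT was lost without WT replicate 2 (adjusted p = 0.0528), and the call against Jmjd1a-KO without double-KO replicate 2 (adjusted p = 0.0503).

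Smc1b, the meiotic counterpart of SMC1A, had log2 values of 6.71 and 7.05 in double-KO, 6.81 and 6.73 in Jmjd1a-KO, 7.60 and 7.80 in Jmjd1b-KO, and 6.84 and 6.82 in WT. The Jmjd1b-KO arrays stood above all others, and double-KO overlapped with both Jmjd1a-KO and WT. Smc1b rose by 0.87 ± 0.13 in Jmjd1b-KO against WT (1.83-fold, adjusted p = 0.0108). In double-KO it was 0.82 ± 0.13 lower than in Jmjd1b-KO (1.77-fold lower, adjusted p = 0.0037) and differed from WT by 0.05 (95% confidence interval -0.27 to 0.36, adjusted p = 0.79). The call in Jmjd1b-KO against WT was lost when either WT array was left out (adjusted p = 0.0747 and 0.0586) or either Jmjd1b-KO array (adjusted p = 0.0554 and 0.0776).

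The measured probe set of the recombinase gene Dmc1 had log2 values of 7.30 and 7.53 in double-KO, 7.42 and 7.04 in Jmjd1a-KO, 8.59 and 8.45 in Jmjd1b-KO, and 7.82 and 7.73 in WT. Jmjd1b-KO was above all other arrays, WT came next, and double-KO and Jmjd1a-KO overlapped below it. Dmc1 rose by 0.74 ± 0.14 in Jmjd1b-KO against WT (1.67-fold, adjusted p = 0.0214). In double-KO it was 1.11 ± 0.14 lower than in Jmjd1b-KO (2.15-fold lower, adjusted p = 0.0021). The differences from WT of -0.36 in double-KO and -0.55 in Jmjd1a-KO had adjusted p = 0.0883 and 0.0506. The call in Jmjd1b-KO against WT was lost when either WT array was left out (adjusted p = 0.101 and 0.0986) or either Jmjd1b-KO array (adjusted p = 0.121 and 0.096). The second Dmc1 probe set was flat over the arrays, so it holds no measured difference with which to check this rise.

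With loss of Jmjd1a alone, both regulators and Hormad1 were lower than in WT. In Jmjd1a-KO against WT, 3 of the 8 measured members fell (Stra8, Sohlh2 and Hormad1) and 0 rose, beside 17.8% of the 11502 measured probe sets that passed the same threshold, of which 7.84% of all fell and 9.98% rose. Their median difference was -0.39, against 0.00 over all measured probe sets. Leaving out 1 WT array gave 2 (replicate 1) or 1 (replicate 2), and leaving out either Jmjd1a-KO array gave 4. Dmc1, at -0.55, came next (limma, adjusted p = 0.0506), and 0 members were higher even at an unadjusted p under 0.05. The arrays of the groups did not overlap for 6 of 8 members, beside 64.8% of all measured probe sets.

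With loss of Jmjd1b alone, most structural genes and Dmc1 were higher than in WT, and neither regulator passed the threshold in the fit of all 4 groups. In Jmjd1b-KO against WT, 5 of 8 members rose (Hormad1, Sycp3, Smc1b, Dmc1 and Sycp1) and 0 fell, beside 23.9% of all measured probe sets past the threshold, with 12.3% higher and 11.5% lower. The median of the members was 0.78, against 0.00 over all measured probe sets. Stag3, at 0.83, missed the threshold, and 0 members were lower in that fit even at an unadjusted p under 0.05 (limma). With only these 2 groups in the fit, 7 of 8 passed, among them Stag3 as higher and Stra8 (-0.43) as lower. The arrays did not overlap for 7 of 8 members, beside 77.3% of all. Leaving out 1 WT array gave 1 (replicate 1) or 2 (replicate 2), leaving out 1 Jmjd1b-KO array gave 2 (replicate 1) or 1 (replicate 2), and leaving out any of the other 4 arrays gave 6, with Hormad1 past the threshold each time.

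Loss of both enzymes gave members on both sides. In double-KO against WT, 3 of 8 rose (Stag3, Sycp1 and Sycp3) and 3 fell (Stra8, Sohlh2 and Hormad1), beside 46.5% of all measured probe sets past the threshold (26.9% higher and 19.6% lower). Their median was -0.16, against 0.02 over all measured probe sets. The arrays did not overlap for 7 of 8 members, beside 78.4% of all. Leaving out 1 WT array turned the count of 6 into 5 (replicate 1) or 4 (replicate 2), and leaving out either Jmjd1a-KO array turned it into 7. Both directions were also common over the whole array in this comparison.

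Deletion of Jmjd1b in cells without Jmjd1a was read from double-KO against Jmjd1a-KO. Here 5 of 8 members rose (Stag3, Sycp1, Sycp3, Hormad1 and Sohlh2) and Stra8 fell, beside 28.9% of all measured probe sets past the threshold (17% higher and 11.9% lower). The median was 0.47, against 0.02 over all, and the arrays did not overlap for 6 of 8 members, beside 62.3% of all. With only these 2 groups in the fit, 2 of 8 passed, and Stra8 did not. In double-KO against Jmjd1b-KO, Sycp1 rose and 5 of 8 fell (Stra8, Hormad1, Sohlh2, Dmc1 and Smc1b), beside 50.1% of all past the threshold (28.3% higher and 21.8% lower), and the arrays did not overlap for 8 of 8, beside 82.0% of all. In Jmjd1a-KO against Jmjd1b-KO, 7 of 8 were lower and 0 higher, beside 27.8% of all (15.1% higher and 12.7% lower), and the arrays did not overlap for 8 of 8, beside 68.3% of all. The exception was Stag3 (-0.91 ± 0.31, adjusted p = 0.0795). The comparisons share arrays, so their counts are not independent of each other.

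**Figure D2:**
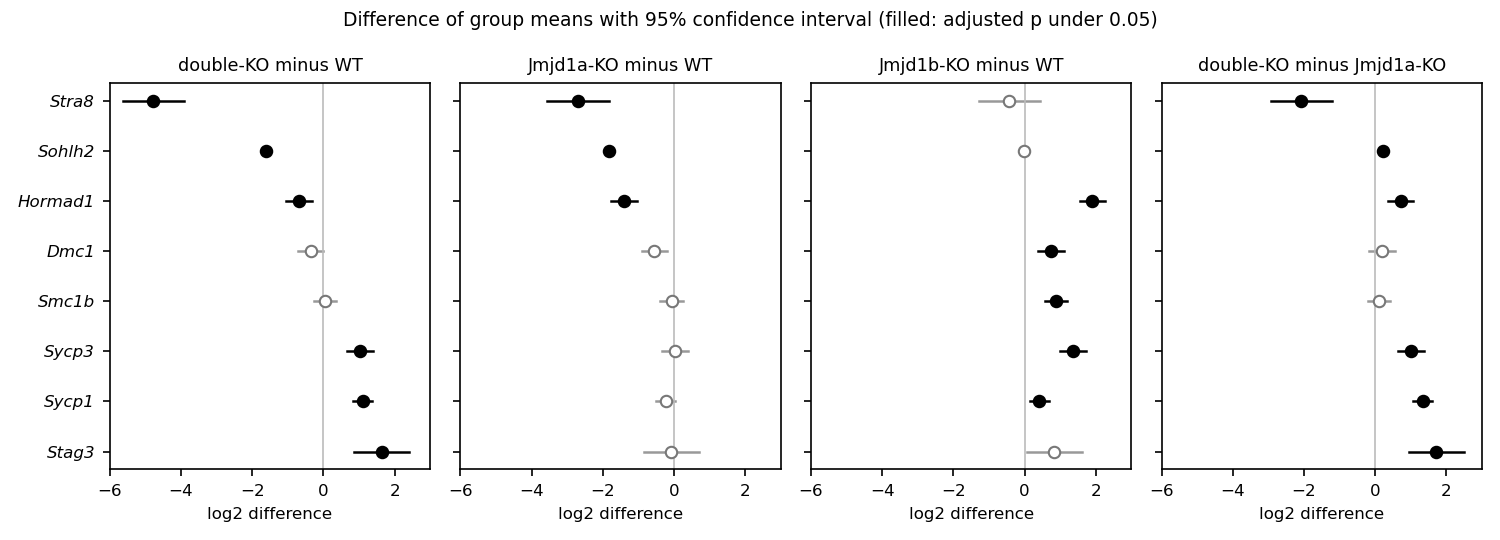
Differences of group means (x axis, log2) for the 8 measured genes in 4 comparisons, with 95% confidence intervals as lines; filled points had an adjusted p under 0.05 and open points did not. Stra8 has the lowest point in all 4 panels, open at -0.43 in Jmjd1b-KO minus WT and filled in the others, and Hormad1 lies at -1.40 in Jmjd1a-KO minus WT and at 1.90 in Jmjd1b-KO minus WT.

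Whether Jmjd1b loss acted alike with and without Jmjd1a was asked with the interaction term, the difference of double-KO minus Jmjd1a-KO and Jmjd1b-KO minus WT. It passed for 3 of 8 members, beside 24.9% of all measured probe sets (13.9% higher and 11.1% lower). For Hormad1 it was -1.18 ± 0.20 (adjusted p = 0.0131): the rise with Jmjd1b loss was 0.72 without Jmjd1a and 1.90 with it. For Smc1b it was -0.76 ± 0.18 (adjusted p = 0.031), with differences of 0.11 without Jmjd1a and 0.87 with it. For Sycp1 it was 0.92 ± 0.15 (adjusted p = 0.0127), with rises of 1.33 without Jmjd1a and 0.41 with it. For Sycp3 it was -0.37 (95% confidence interval -0.88 to 0.15, adjusted p = 0.238), and for Stra8 -1.65 (-2.87 to -0.43, adjusted p = 0.0585). Each of these calls was refitted without 1 array at a time. The fits that left out WT replicate 1 or Jmjd1b-KO replicate 2 gave 0 of 8 (5 and 3 at an unadjusted p under 0.05, limma), and those that left out the other array of either group gave 2. Leaving out Jmjd1a-KO replicate 2 or either double-KO array gave 4.

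**Figure D3:**
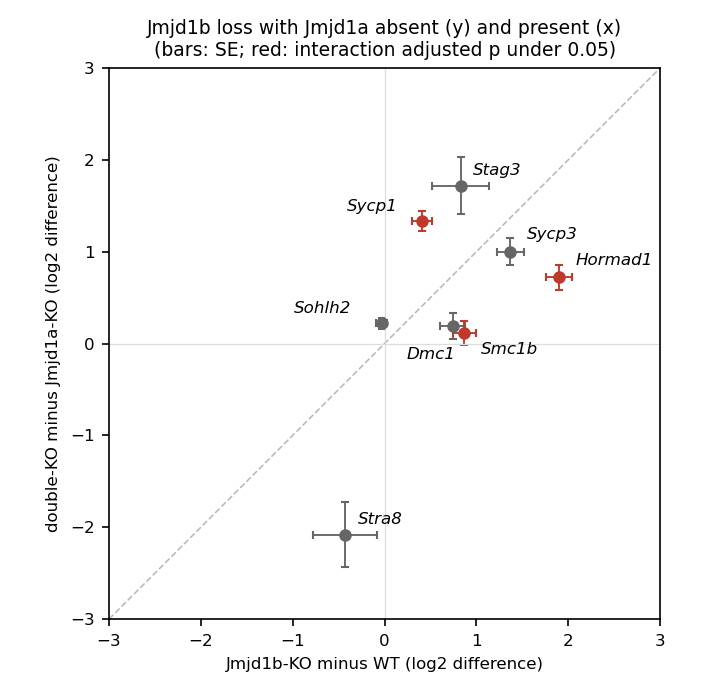
Log2 difference with Jmjd1b loss where Jmjd1a was absent (double-KO minus Jmjd1a-KO, y axis) against that where it was present (Jmjd1b-KO minus WT, x axis), 1 point per gene with SE bars; the dashed line marks equal differences and red points had an interaction with adjusted p under 0.05. Hormad1 and Smc1b lie below the line and Sycp1 above it.

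The wider meiotic lists were set beside the members. Of 9 listed genes of the chromosome axis and synaptonemal complex, 7 were measured, and all 7 rose in Jmjd1b-KO against WT, where 12.3% of all measured probe sets rose: the members Hormad1, Sycp3 and Sycp1 and the central element genes Syce3 (1.14 ± 0.12), Syce2 (0.87 ± 0.15), Syce1 (0.69 ± 0.13) and Tex12 (0.60 ± 0.08). The list median was 0.87. The Sycp3 and Sycp1 calls were lost without some single arrays, and no such check is given here for the central element genes. Sycp2 and Hormad2 were flat. In double-KO against WT 4 rose (Sycp1, Syce3 with 1.08 ± 0.12, Sycp3 and Tex12 with 0.90 ± 0.08) and Hormad1 fell. Of all measured probe sets, 26.9% passed as higher and 19.6% as lower in that comparison. The list median there was 0.90. In Jmjd1a-KO against WT Hormad1 and Syce1 (-0.82 ± 0.13) fell and 0 rose, beside 7.84% and 9.98% of all measured probe sets. Syce2 had an interaction of -0.99 ± 0.21 (adjusted p = 0.0224), with a rise of 0.87 in Jmjd1b-KO against WT and -0.12 (adjusted p = 0.582) in double-KO against Jmjd1a-KO. Syce3 had an interaction of -0.01 (adjusted p = 0.972).

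Of 22 recombination genes 17 had a probe set of their own and 8 were measured, Dmc1 among them. In Jmjd1b-KO against WT 4 rose and 0 fell, beside 12.3% and 11.5% of all measured probe sets. The risers were Dmc1 and Rec114, a protein needed for meiotic DNA breaks (0.92 ± 0.14, limma adjusted p = 0.0111). The others were the homologous recombination gene Rad51c (0.29 ± 0.08, adjusted p = 0.048) and Meiob, which binds single-stranded DNA (0.27 ± 0.07, adjusted p = 0.0435). Meiob lay between 6.05 and 6.42 on every array, around the lower quartile of all values. Rec114 had log2 values of 8.46 and 8.63 in double-KO, 8.60 and 8.22 in Jmjd1a-KO, 10.22 and 10.12 in Jmjd1b-KO, and 9.22 and 9.29 in WT. Like Hormad1 it fell in double-KO (-0.71, adjusted p = 0.00852) and in Jmjd1a-KO (-0.85, adjusted p = 0.0156) against WT. In double-KO against WT Rad51c (0.45) rose, and Rec114 and Trip13 (-0.37), an ATPase that takes HORMA proteins off chromosomes, fell. There 26.9% of all measured probe sets rose and 19.6% fell. Spo11, which makes the breaks, was flat, as were Msh4, Msh5, Mei1, Mei4 and Prdm9.

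**Figure D4:**
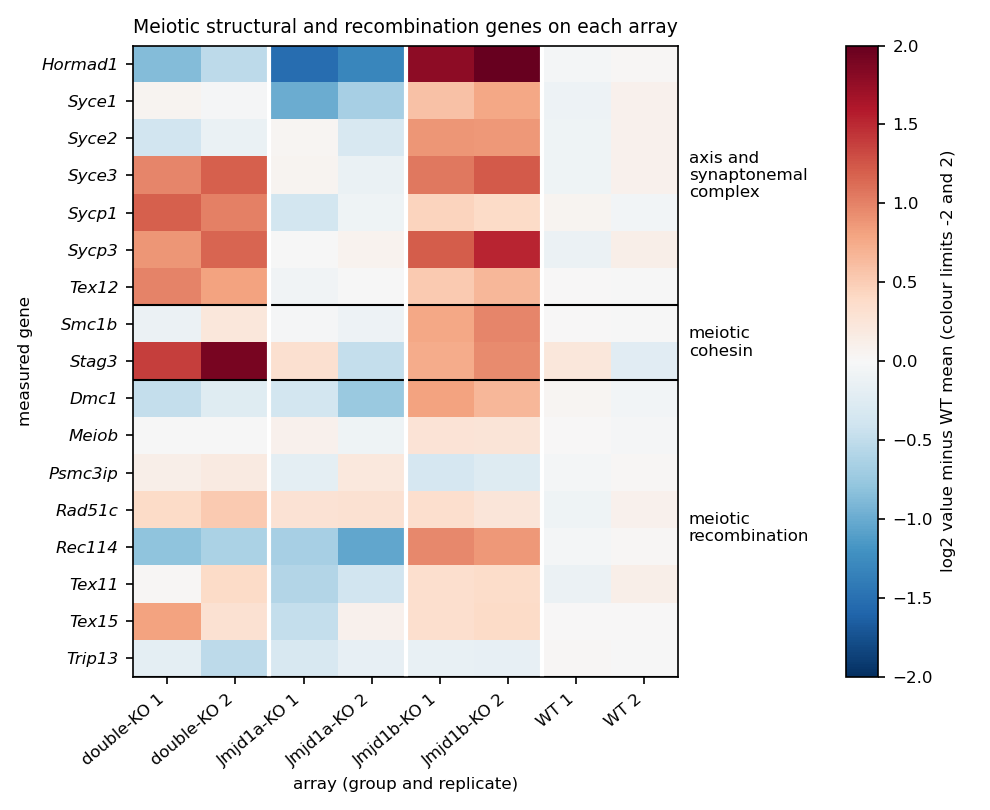
Log2 value of each array minus the WT mean (colour, red above and blue below) for the 17 measured genes of 3 meiotic lists, with arrays in columns and genes in rows. Hormad1, Syce1 and Rec114 are blue in Jmjd1a-KO and red in Jmjd1b-KO, while Syce3, Sycp1, Sycp3, Tex12 and Stag3 are red in both groups without Jmjd1b.

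Somatic counterparts of the members were measured too. The cohesin subunit Smc1a, counterpart of Smc1b, passed in none of the 3 comparisons with WT, with 0.18 for double-KO, 0.08 for Jmjd1a-KO and 0.11 for Jmjd1b-KO (adjusted p between 0.0704 and 0.412). Stag2, a counterpart of Stag3, rose by 0.75 ± 0.09 in double-KO against WT (adjusted p = 0.0019), and Stag1 rose by 0.39 ± 0.09 in Jmjd1a-KO (adjusted p = 0.0326). Rad21, the counterpart of Rec8, rose by 0.54 ± 0.09 in double-KO against WT (adjusted p = 0.00589). Of 7 measured genes of this list, 4 rose in double-KO, 1 rose in Jmjd1a-KO and 0 rose in Jmjd1b-KO against WT, and 0 fell, where 26.9%, 9.98% and 12.3% of all measured probe sets rose in the same comparisons. The smallest adjusted p in Jmjd1b-KO was that of Stag1 (limma, 0.0975).

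Other regulators of meiotic entry moved both ways. Of 10 measured genes of that list, Stra8 and Sohlh2 included, 4 rose and 4 fell in double-KO against WT, where 26.9% of all measured probe sets rose and 19.6% fell. The risers were Dazl, an RNA-binding protein that licenses germ cells for meiosis (2.85 ± 0.08), Tcfl5, a helix-loop-helix factor of spermatocytes (1.04 ± 0.10), Taf4b (0.59) and Taf7l (0.32), subunits of transcription complexes in germ cells. Dmrt1, a factor that restrains meiosis in the mouse testis, fell by 1.62 ± 0.21 and Lin28a fell by 0.96 ± 0.26. In Jmjd1a-KO against WT, Mybl1, a meiotic transcription factor (1.10 ± 0.18), and Taf4b (0.37) rose, and Stra8, Sohlh2 and Dmrt1 (-1.41 ± 0.21) fell. In Jmjd1b-KO against WT, Bmp4 (1.52 ± 0.29), Dazl (1.32 ± 0.08) and Tcfl5 (0.78 ± 0.10) rose and Dmrt1 (-0.86 ± 0.21) fell. Of the retinoic acid list 6 of 18 genes were measured. In double-KO against WT the retinoic acid binding proteins Crabp1 (-1.93 ± 0.28) and Crabp2 (-1.84 ± 0.33) and the list gene Hoxb1 (-1.34 ± 0.21) fell. Cyp26a1, which degrades retinoic acid (1.17 ± 0.30), and Nrip1 (0.35 ± 0.08) rose. The double-KO arrays of Hoxb1, at 5.70 and 5.61, lay below the lower quartile of all values, and those of Cyp26a1 stood at 8.29 and 7.27. In Jmjd1a-KO against WT 0 of these 6 passed, beside 17.8% of all measured probe sets, with the smallest adjusted p at Hoxb1 (limma, 0.155). In Jmjd1b-KO against WT Hoxb1 fell by 0.83 ± 0.21 (adjusted p = 0.0385) and the other 5 did not pass. The part of these genes in the level of Stra8 was not tested.

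Genes for repressors of the germline programme were set beside the members. Among 7 measured DNA methylation genes, Dnmt3l, the cofactor of de novo methylation, had log2 values of 8.72 and 9.61 in double-KO, 9.5 and 9.91 in Jmjd1a-KO, 13.12 and 13.16 in Jmjd1b-KO, and 11.11 and 11.42 in WT. It fell by 2.10 ± 0.30 in double-KO and by 1.56 ± 0.30 in Jmjd1a-KO and rose by 1.87 ± 0.30 in Jmjd1b-KO against WT, the same directions as Hormad1. The methyltransferase Dnmt3a fell by 3.32 ± 0.28 in double-KO and by 1.13 ± 0.28 in Jmjd1a-KO against WT, and Dnmt3b fell by 0.55 and 0.69 in these groups. Dnmt1 was flat. Of 10 measured PRC1.6 subunits, 2 rose and 3 fell in double-KO, 0 rose and 1 fell in Jmjd1a-KO, and 2 rose and 2 fell in Jmjd1b-KO against WT, beside 46.5%, 17.8% and 23.9% of all measured probe sets that passed, so that these counts stood near or below those shares in the first 2 groups. In double-KO against WT, Tfdp1, the partner of E2F proteins, fell by 1.15 ± 0.12, Wdr5, a subunit shared with other chromatin complexes, fell by 0.73 ± 0.13 and Rnf2, a ubiquitin ligase, rose by 0.51 ± 0.09. In Jmjd1b-KO against WT, Yaf2 fell by 0.70 ± 0.14 and Tfdp1 fell by 0.49 ± 0.12. Pcgf6, the defining subunit, fell by 0.46 ± 0.07 in double-KO and by 0.48 ± 0.07 in Jmjd1a-KO. E2f6 rose by 0.35 ± 0.10 in double-KO, and Mga rose by 0.36 ± 0.09 and L3mbtl2 by 0.33 ± 0.08 in Jmjd1b-KO, against WT in each case. Max was flat. Of 5 measured H3K9 methyltransferase and reader genes, 3 fell in double-KO, 1 fell in Jmjd1a-KO, and 1 rose and 2 fell in Jmjd1b-KO. The same 46.5%, 17.8% and 23.9% of all measured probe sets passed in these groups. The part of the repressor genes in the members' changes was not tested.

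The profiles of the measured members over the 8 arrays were alike to differing degrees. Pearson's r was 0.96 between Hormad1 and Dmc1, 0.92 between Hormad1 and Smc1b and 0.90 between Smc1b and Dmc1. It was 0.87 between Stra8 and Sohlh2, 0.87 between Sycp1 and Stag3, 0.75 between Sycp3 and Stag3 and 0.71 between Sycp3 and Sycp1. It was 0.82 between Sohlh2 and Hormad1, 0.82 between Sohlh2 and Dmc1 and 0.78 between Sycp3 and Smc1b, so the profiles did not form separate sets. It was -0.59 between Stra8 and Sycp1. These values describe 8 points in 4 groups and rest on the differences between group means. Among 2781 probe sets with a span of at least 1, the most similar gene was Pebp1 for Stra8 (r = 0.993), Gstp1 for Sohlh2 (0.993), Cela2a for Hormad1 (0.989), Syce3 for Sycp3 (0.978), Tle4 for Sycp1 (0.990), Mrps24 for Smc1b (0.986), Ddx60 for Stag3 (0.967) and B230311B06Rik for Dmc1 (0.989). Kdm3a itself was the next for Sohlh2 (0.993), Rec114 the next for Dmc1 (0.989), and a second probe set of Dazl was among the first 3 for Sycp1 (0.979). Mfng and Ak7 followed for Stra8 (0.993 and 0.990), Prkca for Sohlh2 (0.988), Ascl2 and Ldhc for Hormad1 (0.986 and 0.985), and Krt19 and Fem1b for Sycp3 (0.961 and 0.958). Pdzk1 came second for Sycp1 (0.980), Ldb3 and 2610528J11Rik followed for Smc1b (0.986 and 0.982), Inpp5k and Gpat2 for Stag3 (0.965 and 0.962), and Tfpi for Dmc1 (0.982).

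Markers of other cells moved with the groups as well. Of 10 germ cell markers 8 were measured, with mean log2 values per array of 9.12 to 9.13 in double-KO, 8.03 to 8.03 in Jmjd1a-KO, 8.47 to 8.51 in Jmjd1b-KO and 7.99 to 8.08 in WT, and linear values summing to between 5719 and 6010, 3947 and 4450, 3303 and 3392, and 2904 and 3028 in the same groups. Against WT, 6 rose and 1 fell in double-KO, 2 rose and 2 fell in Jmjd1a-KO, and 3 rose and 1 fell in Jmjd1b-KO. Of all measured probe sets, 26.9% rose and 19.6% fell in double-KO, 9.98% and 7.84% in Jmjd1a-KO, and 12.3% and 11.5% in Jmjd1b-KO. Ddx4, an RNA helicase of germ cells, rose by 1.22 ± 0.09 in double-KO and by 0.85 ± 0.09 in Jmjd1b-KO against WT, and Mael, a piRNA pathway protein, rose by 1.86 ± 0.15 and 1.00 ± 0.15 in these groups and fell by 0.63 ± 0.15 in Jmjd1a-KO. Piwil2, another piRNA pathway gene, fell by 0.76 ± 0.14 in double-KO and fell by 1.16 ± 0.14 in Jmjd1a-KO, and Dnd1, an RNA-binding protein, fell by 0.43 ± 0.11 in Jmjd1b-KO. The 2 risers in Jmjd1a-KO against WT were Kit (0.93 ± 0.18) and Dppa3 (0.87 ± 0.10). Dppa3 averaged 11.32 in Jmjd1a-KO and 10.44 in WT. Prdm1 rose by 1.72 ± 0.15 and Kit by 1.00 ± 0.18 in double-KO against WT. Of 10 fibroblast markers 8 were measured, with linear sums of 9046 to 10970 in double-KO, 8763 to 9529 in Jmjd1a-KO, 4834 to 5250 in Jmjd1b-KO and 14720 to 14860 in WT, and 4, 5 and 6 of them fell against WT in double-KO, Jmjd1a-KO and Jmjd1b-KO, where 19.6%, 7.84% and 11.5% of all measured probe sets fell. Thy1, a surface protein, rose by 0.56 ± 0.07 in Jmjd1b-KO. Of 8 trophoblast markers 5 were measured, with sums of 6968 to 7035 in double-KO, 2513 to 2585 in Jmjd1a-KO, 2174 to 2197 in Jmjd1b-KO and 982 to 1142 in WT. Of 8 neural markers 5 were measured, with sums of 1086 to 1323 in double-KO, 1494 to 3576 in Jmjd1a-KO, 1127 to 1203 in Jmjd1b-KO and 3785 to 4023 in WT. Of 8 endoderm markers 3 were measured, with sums of 385.7 to 510.7, 348.2 to 363.0, 228.3 to 235.5 and 284.6 to 309.0 in the same order of groups. The part of these markers in the members' changes was not tested.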

How the data were processed

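RNA of 8 mouse embryonic stem cell samples was hybridised to 1 Affymetrix array each. The authors deposited 1 table of log2 values for 45101 probe sets. The unit was read from the values. Per the submitters' processing notes R 2.7.2 was used, and the sources used here name neither the background correction nor the normalization or summarization. In 33599 probe sets (74.5%) the 8 values spanned less than 0.01. Of all probe sets, 34958 had 1 gene symbol in the platform's gene table, 932 had several and 9211 had none. All 8 columns were used, and having 2 arrays a group limits precision.

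The 11502 probe sets that spanned at least 0.01, with or without a symbol, were fitted with limma 3.58.1 in R 4.3.3 (4 group means, lmFit and eBayes, 4 residual and 1.89 prior degrees of freedom). Benjamini-Hochberg adjustment ran over all 11502, with 0.05 as the threshold, and 95% confidence intervals came from the same fit. Flat probe sets were left out because they set the prior variance near 0. There were 7 contrasts: 6 between pairs of groups, and the interaction. One error estimate serves every group, although double-KO and Jmjd1a-KO replicates spread more. Of list genes, the measured probe set with the highest mean was used. The fit was tested on simulated data.

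Named genes were the members, Kdm3a and Kdm3b, somatic counterparts, list genes past the threshold (up to 6 a list and comparison), and the 3 genes most correlated with each member. Flat genes, and list genes named with values for comparison, were picked by eye. Members and lists were chosen with earlier results of these data known. Alternatives were fitting every probe set, 1 probe set per gene, a filter on low means, quantile normalization, centring, a robust eBayes with trend, only the groups compared, a replicate block and omission of each array. Matplotlib 3.10.9 (Python 3.11.15) drew the figures.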

Additional observations from a re-analysis of the deposited data

Results flagged for a closer look

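The difference made by Jmjd1b loss was not the same in cells without and with Jmjd1a for 3 of the 8 measured members, by the interaction term of the limma fit, which 24.9% of all measured probe sets also passed. With every probe set of the table, or 1 per gene, 0 of 8 passed (5 at an unadjusted p under 0.05 in each). The interaction was -1.18 for Hormad1 (adjusted p = 0.0131), 0.92 for Sycp1 (adjusted p = 0.0127) and -0.76 for Smc1b (adjusted p = 0.031) on the log2 scale. For Hormad1 and Sycp1 the adjusted p was 0.0533 and 0.0523 without WT replicate 1, and 0.058 and 0.0598 without Jmjd1b-KO replicate 2. For Smc1b it was 0.0909 and 0.0952 without WT replicates 1 and 2, 0.0659 without Jmjd1a-KO replicate 1, and 0.0647 and 0.107 without Jmjd1b-KO replicates 1 and 2. Groups of 2 arrays are too small for a test of single outlying arrays.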

How the results depend on the processing

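Of the 36 member differences past the threshold over the 7 contrasts, 17 kept direction and threshold under all 16 alternatives. Fits that took in flat probe sets gave 6 members in double-KO against Jmjd1b-KO, as without them, and fewer in every other contrast: 4 in double-KO against WT and 2 in Jmjd1a-KO against WT in both such fits. With every probe set of the table, 1 of 8 members passed in Jmjd1b-KO against WT, 1 in double-KO against Jmjd1a-KO, 4 in Jmjd1a-KO against Jmjd1b-KO and 0 in the interaction, and with 1 probe set per gene 2, 1, 4 and 0 did (limma; 5, 6, 7 and 3 otherwise). In each of those fits the interaction had an unadjusted p under 0.05 for 5 members, against 6 otherwise. A fit of double-KO and Jmjd1a-KO alone passed 2, and a fit of Jmjd1b-KO and WT alone passed 7. When each array was left out in turn, the number of members past the threshold ranged between 1 and 4 for Jmjd1a-KO against WT, 1 and 6 for Jmjd1b-KO against WT, 4 and 7 for double-KO against WT, 4 and 5 for double-KO against Jmjd1a-KO, 6 and 7 for double-KO against Jmjd1b-KO, 5 and 8 for Jmjd1a-KO against Jmjd1b-KO, and 0 and 4 for the interaction.

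The differences that changed sign were past no threshold: Smc1b in double-KO against WT with centring (-0.05) and without double-KO replicate 2 (-0.12, against 0.22 without replicate 1), Smc1b in double-KO against Jmjd1a-KO without double-KO replicate 2 (-0.06, against 0.28 without replicate 1), and 2 genes in Jmjd1a-KO against WT. Of these, Sycp3 ranged from -0.09 to 0.15 and Stag3 from -0.48 to 0.32 over the fits that left out 1 array. Deviations of arrays with the same replicate number correlated between -0.04 and 0.24, so the numbers were not taken as pairs. With the number as a block, 4 members passed in Jmjd1b-KO against WT, 5 in double-KO against Jmjd1a-KO and 7 in double-KO against Jmjd1b-KO, while the other counts were 6, 3, 7 and 3 as without it.

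Over all measured probe sets, calls in double-KO against WT numbered 5350, against 3228 with every probe set of the table and 2316 with 1 per gene. Those in Jmjd1a-KO against WT numbered 2050, against 775, 374, and 394 with only those groups in the fit. Those in Jmjd1b-KO against WT numbered 2744, against 819, 425 and 5071, and those in double-KO against Jmjd1a-KO 3329, against 1291, 816 and 556. For double-KO against Jmjd1b-KO the counts were 5762, 3821 and 2629, for Jmjd1a-KO against Jmjd1b-KO 3196, 1360, 851 and 2118, and for the interaction 2868, 1247 and 696. Without each array in turn they lay between 186 and 3674 for Jmjd1a-KO and between 104 and 3805 for Jmjd1b-KO, both against WT. With centring, higher calls made up 43.4% (57.9% otherwise) for double-KO against WT, 45.1% (56.0%) for Jmjd1a-KO against WT, 46.0% (58.8%) for double-KO against Jmjd1a-KO, 46.8% (56.4%) for double-KO against Jmjd1b-KO and 44.3% (51.6%) for Jmjd1b-KO against WT. The cause of these differences was not tested. The fits with every probe set and with 1 per gene adjusted over more tests. They also had fewer prior degrees of freedom (0.12 and 0.11, against 1.89). Fits of only the groups compared used the same 11502 probe sets. Signal over background was not analysed here.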
